A study of Mus musculus with 6 samples.

Results

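The genes described here are the enzymes and regulators with which DU145 tumour cells make sterols and fatty acids. They are the 33 rows of a human count table of 58884 named genes whose symbol stood in a fixed list: 21 enzymes and related proteins of the sterol arm, 5 regulators and sterol carriers, and 7 enzymes of the fatty acid arm. All 33 members passed the filter on low counts that left 18820 human genes for testing. DU145 is a human prostate cancer line that grows without androgen. The cells had been injected under the skin of male nude mice, which lack a thymus and mature T cells but keep the other host cells, and RNA was read from whole tumours. The 3 control tumours (libraries NC10, NC4 and NC9) carried the treatment label control. The 3 tumours of the other group (MBZ_254, MBZ_257 and MBZ_259) carried the label Zelnorm, a trade name of tegaserod, which was given by mouth each day at a dose the labels do not state. Their titles carry MBZ, whose meaning the sources used here do not give, so the group is named by its treatment label. The age of the mice and the duration of treatment are not given there either. Every tumour came from the same cell line, and the labels do not name the animals, so that p-values measure the spread between these samples only.

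Cells build cholesterol from acetyl units through mevalonate, isoprenoids, squalene and lanosterol, and build fatty acids from the same acetyl units by way of malonyl units. Both arms are controlled by the sterol regulatory element binding proteins, transcription factors held in the endoplasmic reticulum by the SCAP and INSIG proteins while sterol is plentiful and released to the nucleus when it is scarce. In prostate cancer cells these pathways supply membrane lipid and have been studied as drug targets.

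Depth in the human table was 24602178 to 39278195 counts per library, and the mouse table of the same libraries held 15.1% (MBZ_257) to 23.4% (MBZ_254) of the named counts of both tables. The 6 epithelial markers fixed for DU145 (EPCAM, CDH1, KRT8, KRT18, KRT19 and CLDN4) summed to 3958 to 4923 CPM (counts scaled to library size) in the human table of the controls and 4652 to 5100 CPM in the Zelnorm tumours. Of the fat cell markers, RETN had no human count in any library and ADIPOQ, CIDEC and LEP lay at 0 to 0.0816 CPM, while PLIN1 lay at 0.326 to 0.526 CPM and CFD at 2.91 to 4.84 CPM in every library. Skeletal muscle symbols, which an epithelial line should not supply, summed to 12.3 to 124 CPM in the human table of the controls and 0.942 to 243 CPM in that of the Zelnorm tumours, and were highest in the human and the mouse table in the same library, MBZ_259. The fibroblast list summed to 626 to 1202 CPM in the human table of the controls and 262 to 972 CPM in that of the Zelnorm tumours. That sum came from the collagens COL1A1 and COL3A1, while DCN lay at 0 to 0.0777 CPM. The fibroblast sum was highest in NC4 and lowest in MBZ_257 in both tables. Leukocyte symbols, mainly CD68 and CD74, summed to 58.0 to 63.1 CPM in the human table of the controls and 53.1 to 67.2 CPM in that of the Zelnorm tumours. Their sum was highest in MBZ_257 in the human and in MBZ_254 in the mouse table. Endothelial symbols summed to 1.66 to 3.61 CPM in the human table. In the mouse table the 6 epithelial symbols summed to 928 to 994 CPM in the controls and, in MBZ_254, MBZ_257 and MBZ_259, to 862, 1454 and 1195 CPM. No source used here says how reads were divided between the species, and the part of either species' reads in the other's table was not tested. A CPM value of a whole tumour cannot tell fewer cells that express a gene from less RNA per cell.

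None of the 33 genes passed edgeR's quasi-likelihood test, in which 0% of the 18820 human genes were called higher and 0% lower at an adjusted p under 0.05. The adjusted p of every member was 1.00. At an unadjusted p under 0.05, 1 of 33 members was found, EBPL, where 1.31% of all genes were found. That 1.31% is below the share of 0.05 that evenly spread p-values would give, so small p-values were scarce in this fit. A high adjusted p therefore does not show that a gene was unchanged. The log2 fold change of Zelnorm over control was above 0 in 27 of 33 members, against 49.1% of all genes tested. By group it was above 0 in 18 of 21 sterol arm genes (median 0.16, range -0.52 to 0.29), in 4 of 5 regulators and carriers (median 0.08, range -0.05 to 0.33) and in 5 of 7 fatty acid genes (median 0.02, range -0.08 to 0.14). The median over all genes tested was -0.0024, and 50.9% of them lay below 0, as did 6 of 33 members. The members were chosen with earlier results of these data known, so these counts and medians describe the list and are not a test. These values moved with single libraries. With 1 library left out, the count above 0 ran from 15 to 19 of 21 in the sterol arm, from 3 to 5 of 5 in the regulators and from 1 (without NC10) to 7 of 7 (without NC4) in the fatty acid arm, where it was 2 of 7 without NC9 and without MBZ_257, 3 of 7 without MBZ_259 and 2 of 7 with the mouse share as a covariate. The regulators' median was 0.04 without NC9, 0.05 without MBZ_257, 0.13 without NC4 and 0.15 without MBZ_254. Whether the arms differed from each other was not tested.

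**Figure D1:**
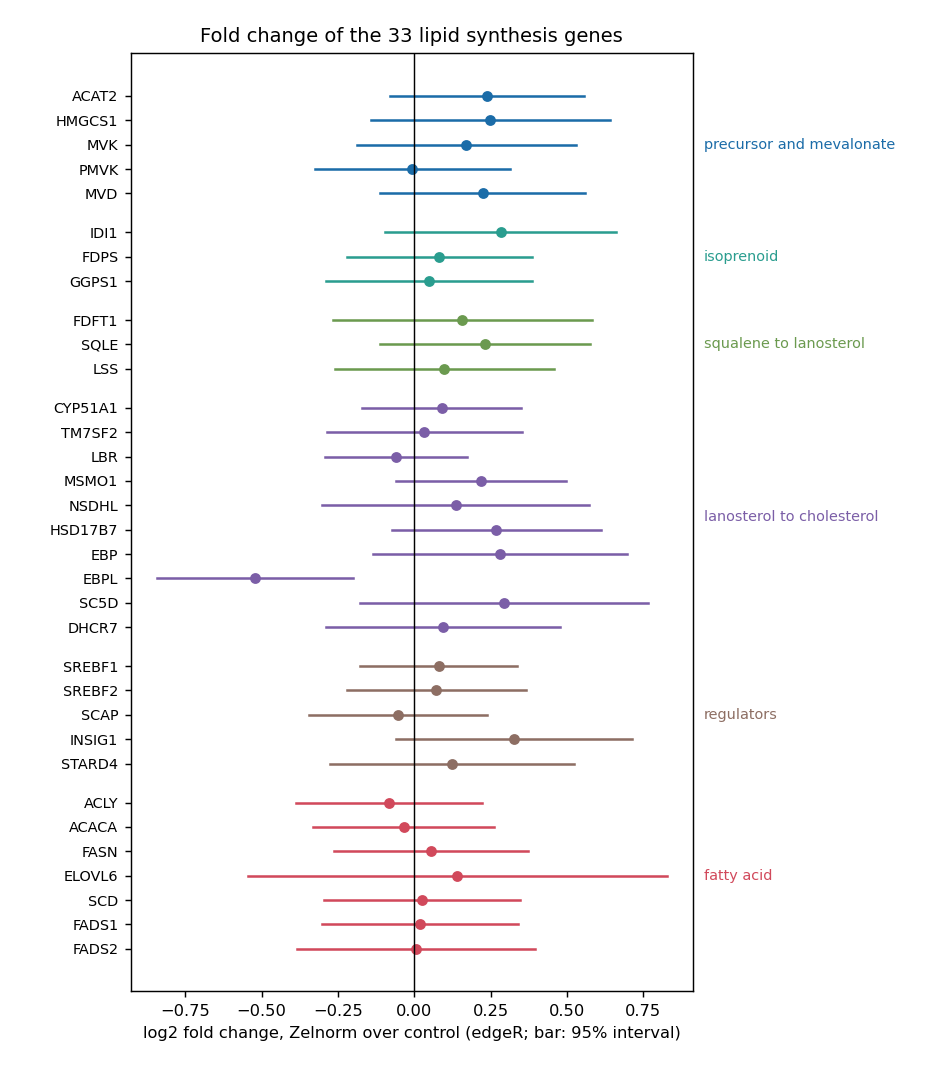
Log2 fold change of Zelnorm over control for each of the 33 genes (horizontal axis, edgeR, n = 3 tumours per group), with 95% intervals as bars and genes ordered and coloured by step of the pathway. The interval of EBPL lies wholly below 0 (-0.84 to -0.20), and those of the other 32 genes include 0.

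The sterol arm opens with the making of mevalonate. ACAT2, the thiolase that joins acetyl units in the cytosol, was at 41.5, 40.3 and 44.6 CPM in NC10, NC4 and NC9 and at 39.8, 52.9 and 56.6 CPM in MBZ_254, MBZ_257 and MBZ_259, an order of libraries kept in the values below. MBZ_254 was the lowest of the 6 and the other Zelnorm libraries were the highest (log2 0.24, SE 0.14, 95% interval -0.08 to 0.56). HMGCS1, the synthase that makes the direct precursor of mevalonate, was at 125, 101 and 132 CPM in the controls and 108, 172 and 145 CPM in the Zelnorm tumours. Its groups overlapped, since MBZ_254 lay below NC10 and NC9, and its log2 fold change was 0.25 (SE 0.18). Without MBZ_257, the library in which HMGCS1 was highest, that value was 0.08, and without MBZ_254 it was 0.41. The kinase MVK and the decarboxylase MVD, which act on mevalonate and its phosphates, had log2 fold changes of 0.17 (SE 0.16) and 0.22 (SE 0.15). PMVK, the kinase between them, had -0.01 (SE 0.14). In this first step the median was 0.22 over 5 genes. It was 0.08 over the 3 isoprenoid genes, 0.16 over the 3 from squalene to lanosterol and 0.12 over the 10 from lanosterol to cholesterol.

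Of the isoprenoid enzymes, IDI1, which interconverts the isoprene units, was at 121, 84.0 and 97.1 CPM in the controls and 99.1, 125 and 143 CPM in the Zelnorm tumours. The control NC10 lay above MBZ_254, so the groups overlapped (log2 0.28, SE 0.17). FDPS, which joins those units into farnesyl diphosphate, had a log2 fold change of 0.08 (SE 0.14). GGPS1, whose product serves the lipid anchoring of proteins and lies off the route to cholesterol, had 0.05 (SE 0.15).

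The next 3 enzymes lead from farnesyl diphosphate to lanosterol. FDFT1, squalene synthase, was at 116, 131 and 116 CPM in the controls and 95.8, 174 and 136 CPM in the Zelnorm tumours. The lowest and the highest of the 6 values were both in the Zelnorm group, in MBZ_254 and MBZ_257, and the log2 fold change of 0.16 (SE 0.19) turned to -0.07 without MBZ_257. SQLE, squalene epoxidase, an oxygen-dependent and rate-limiting step, was at 57.3, 66.7 and 60.0 CPM in the controls and 55.3, 81.9 and 78.7 CPM in the Zelnorm tumours. Again MBZ_254 was the lowest library while MBZ_257 and MBZ_259 were the highest (log2 0.23, SE 0.15, 95% interval -0.11 to 0.58). LSS, which folds the epoxide into lanosterol, was lowest in MBZ_254 at 79.7 CPM and highest in the control NC4 at 110.1 CPM (log2 0.10, SE 0.16).

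Lanosterol is turned into cholesterol by demethylation, reduction and shifting of double bonds. EBPL (ENSG00000123179) was the member with the smallest p. It was at 52.5, 47.1 and 39.6 CPM in the controls and 27.7, 33.9 and 35.2 CPM in the Zelnorm tumours, means of 46.4 ± 6.48 and 32.3 ± 3.97 CPM (SD, n = 3 each). The 3 Zelnorm tumours lay below the 3 controls, a pattern seen in this direction in 2.31% of all genes tested, and the fold change was -0.52 on the log2 scale (SE 0.14, 95% interval -0.84 to -0.20, unadjusted p = 0.00485 and adjusted p = 1.00 by edgeR). With 1 library left out it ran from -0.62 without NC9 to -0.42 without NC10, and the smallest adjusted p it reached under any alternative was 0.246, without the count filter (other alternatives 0.998 or more). EBPL encodes a protein related in sequence to the sterol isomerase EBP, and a role of it in sterol synthesis is not established. EBP itself was at 22.8, 34.1 and 23.7 CPM in the controls and 26.6, 34.7 and 36.6 CPM in the Zelnorm tumours. MBZ_259 and MBZ_257 were the highest, the control NC4 followed closely, and the log2 fold change was 0.28 (SE 0.19).

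HSD17B7, a reductase of the demethylation complex (ENSG00000132196), was the only member whose 3 Zelnorm tumours lay above the 3 controls, which held for 2.52% of all genes. It was at 11.5, 13.5 and 12.3 CPM in the controls and 13.6, 14.5 and 16.9 CPM in the Zelnorm tumours, means of 12.5 ± 1.00 and 15.0 ± 1.74 CPM (SD, n = 3 each). The groups met closely, with NC4 just under MBZ_254, and the log2 fold change was 0.27 (SE 0.15, 95% interval -0.07 to 0.61). HSD17B7 has a near copy, HSD17B7P2, whose row held 7.21% as many counts, so reads may have been divided between them. MSMO1, the methyl oxidase of the same complex (ENSG00000052802), was at 43.6, 38.2 and 36.9 CPM in the controls and 41.1, 46.6 and 50.4 CPM in the Zelnorm tumours. Only MBZ_254 overlapped the controls, through NC10, and the log2 fold change was 0.22 (SE 0.12, 95% interval -0.06 to 0.50). NSDHL, the dehydrogenase of the complex, had a log2 fold change of 0.14 (SE 0.20).

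Among the remaining late enzymes, SC5D, which adds a double bond to the sterol ring, varied most from tumour to tumour. It was at 65.3, 39.1 and 61.0 CPM in the controls and 55.0, 85.0 and 62.9 CPM in the Zelnorm tumours, with a log2 fold change of 0.29 (SE 0.21) that was 0.10 without MBZ_257 and 0.10 without NC4. CYP51A1, the demethylase that acts first on lanosterol, stayed between 126 and 152 CPM in the 6 tumours (log2 0.09, SE 0.12). DHCR7, the last reductase of the route, had 0.09 (SE 0.17). The 2 sterol reductases that can stand in for each other were near 0, with 0.03 (SE 0.14) for TM7SF2 and -0.06 (SE 0.10) for LBR, which is also the receptor that ties lamin to the inner nuclear membrane. LBR had the narrowest 95% interval of the arm, -0.29 to 0.17.

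Read together, the 21 genes of the sterol arm held 1405, 1450 and 1375 CPM in the controls and 1292, 1673 and 1654 CPM in the Zelnorm tumours. That is 1410 ± 37.6 CPM against 1539 ± 215 CPM (SD, n = 3), with MBZ_254 below every control and the other Zelnorm tumours above every control. On the log2 scale, the arm score is the mean over its genes of the deviation of log2 CPM from the average of the 6 tumours, so that each gene counts alike. It was -0.07, 0.00 and -0.11 in the controls and -0.16, 0.16 and 0.18 in the Zelnorm tumours, and the group means differed by less than the spread within the Zelnorm group (-0.06 ± 0.06 and 0.06 ± 0.19). The median log2 fold change of the arm was 0.26 without MBZ_254, 0.08 without MBZ_257 and 0.09 without MBZ_259, so that single Zelnorm libraries moved it by more than 1.5 times. MBZ_254 also held the highest share of mouse counts of the 6 libraries (23.4%) and MBZ_257 the lowest (15.1%). In a fit with this share as a covariate the median was 0.14, with 18 of 21 genes above 0. Single genes moved in both directions in that fit. FDFT1 went from 0.16 to 0.05 and HMGCS1 from 0.25 to 0.16, while TM7SF2 went from 0.03 to 0.07.

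**Figure D2:**
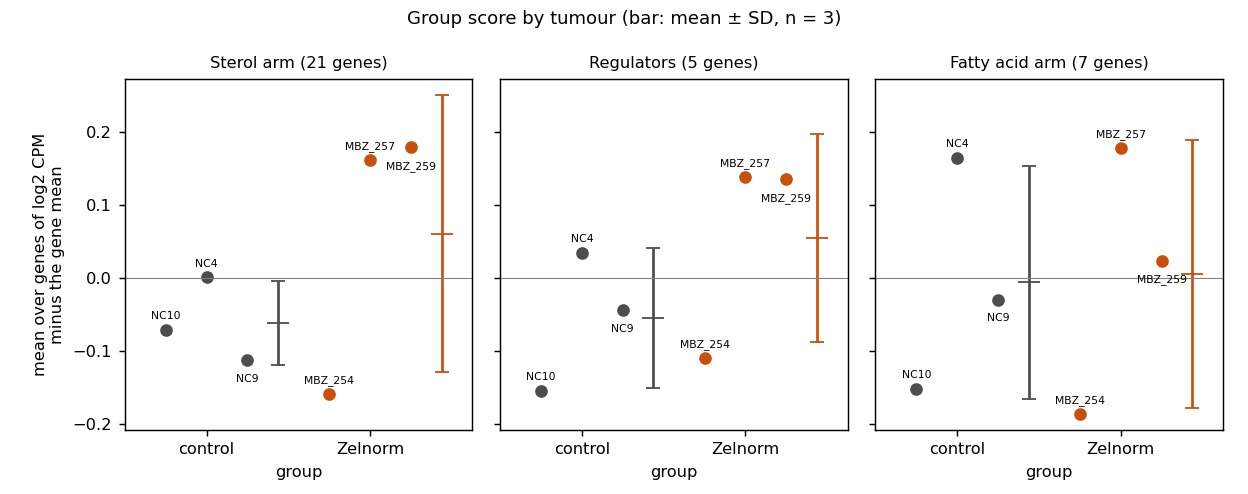
Score of the sterol arm, the regulators and the fatty acid arm in each tumour (vertical axis, average deviation of its genes' log2 CPM from their 6-tumour mean), with points for tumours and bars for the group mean and SD (n = 3). In the sterol arm MBZ_254 lies at -0.16, below the 3 controls, and MBZ_257 and MBZ_259 lie at 0.16 and 0.18, above them.

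The tumours did not share the extremes of the sterol arm evenly. MBZ_259 was the highest of the 6 for 11 of 21 genes, MBZ_257 for 4, NC4 for 3, NC9 for 2, NC10 for 1 and MBZ_254 for 0. The same libraries were the highest for 14.2%, 17.5%, 24.7%, 13.3%, 13.7% and 16.5% of all genes tested. MBZ_254 was the lowest for 8 of 21 genes, NC10, NC4 and NC9 for 4 each, MBZ_259 for 1 and MBZ_257 for 0, where they were the lowest for 17.0%, 14.6%, 24.6%, 12.2%, 14.0% and 17.6% of all genes. Extremes thus fell most often on 2 libraries of the same group. Within the Zelnorm group MBZ_254 was the lowest for 18 sterol arm genes, MBZ_259 for 2 and MBZ_257 for 1, against 36.7%, 29.8% and 33.6% of all genes. Over the 33 members MBZ_254 was the lowest of that group for 28, the exceptions being GGPS1, TM7SF2, LBR, SCAP and SCD. Within the controls NC10 was the lowest for 8, NC4 for 7 and NC9 for 6 sterol arm genes, against 31.6%, 39.0% and 29.4% of all genes. In the fatty acid arm the control NC4 was the highest of the 6 for 5 of 7 genes and MBZ_257 for the other 2. These genes are measured in the same libraries and are not independent of each other, so the counts describe these 6 tumours.

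**Figure D3:**
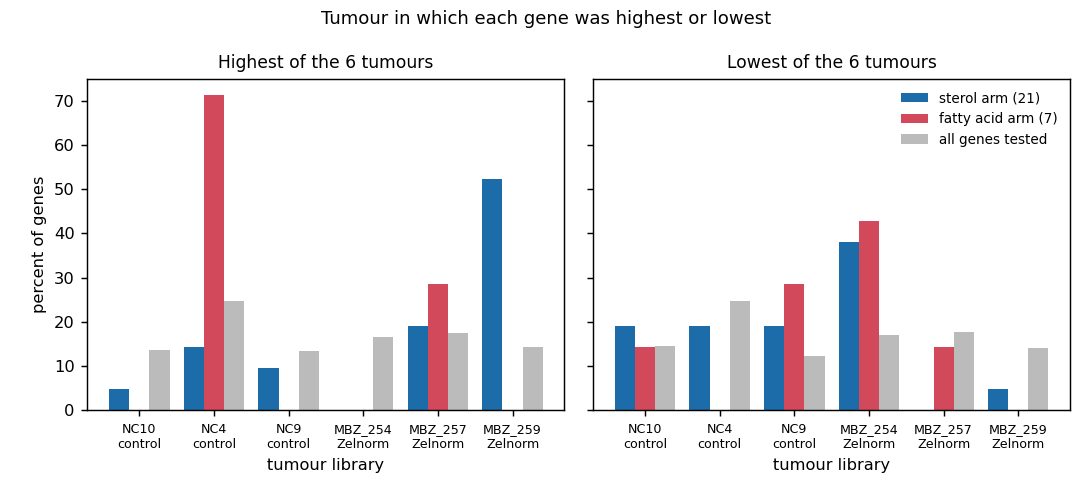
Percent of the 21 sterol arm genes, the 7 fatty acid genes and the 18820 genes tested (vertical axis) that were highest (left) or lowest (right) in each of the 6 tumour libraries (horizontal axis). Sterol arm genes were most often highest in MBZ_259 (11 of 21) and fatty acid genes in the control NC4 (5 of 7).

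Of the regulators and carriers, INSIG1, which holds SCAP in the endoplasmic reticulum and is itself a target of the pathway (ENSG00000186480), was at 26.8, 32.8 and 32.9 CPM in the controls and 29.7, 39.3 and 47.0 CPM in the Zelnorm tumours. MBZ_254 lay among the controls and the other Zelnorm tumours above them. Its log2 fold change of 0.33 (SE 0.17, 95% interval -0.06 to 0.71) was the highest of the 33 members with all libraries. It was 0.16 without MBZ_259, where it ranked 7 of 33, and 0.49 without MBZ_254. SREBF2, the transcription factor mainly tied to sterol genes, was at 232, 294 and 225 CPM in the controls and 249.7, 272 and 268 CPM in the Zelnorm tumours. The control NC4 held the highest of the 6 values, and the log2 fold change was 0.07 (SE 0.13, 95% interval -0.22 to 0.37). SREBF1, which encodes the forms more closely tied to fatty acid genes, was at 54.3, 58.7 and 51.7 CPM in the controls and 51.8, 60.0 and 62.1 CPM in the Zelnorm tumours. MBZ_254 lay beside the lowest control, NC9, and MBZ_259 was the highest (log2 0.08, SE 0.12, 95% interval -0.18 to 0.34). The escort protein SCAP had a log2 fold change of -0.05 (SE 0.13), with the 3 Zelnorm tumours between 67.8 and 69.8 CPM. STARD4, a carrier that moves sterol between membranes, was at 24.4, 20.8 and 29.6 CPM in the controls and 22.4, 32.5 and 26.5 CPM in the Zelnorm tumours. Its groups overlapped throughout (log2 0.12, SE 0.18), and the sign turned to -0.03 without MBZ_257. The counts give no view of the cleavage of the 2 transcription factors, which is the step that sterol controls.

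**Figure D4:**
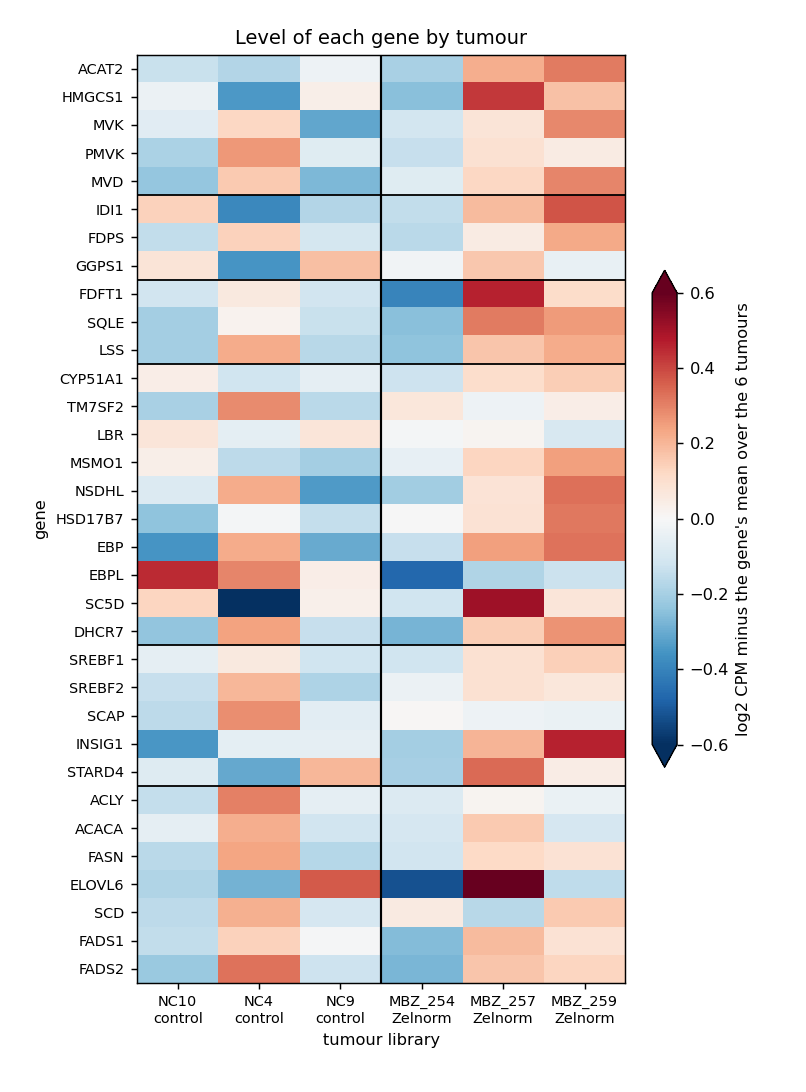
Level of each of the 33 genes (rows, ordered by step) in each tumour library (columns), as the deviation of log2 CPM from its 6-tumour average, from blue (lower) to red (higher). The column of MBZ_254 is mostly blue and those of MBZ_257 and MBZ_259 mostly red in the sterol arm, EBPL runs the other way between groups, and NC4 is mostly red in the fatty acid arm.

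In the fatty acid arm log2 fold changes ran from -0.08 for ACLY to 0.14 for ELOVL6. ACLY, which cleaves citrate to supply acetyl units to both arms, was at 268, 364 and 284 CPM in the controls and 279, 298 and 287 CPM in the Zelnorm tumours. The 3 Zelnorm tumours lay within the range of the controls, of which NC4 was the highest (log2 -0.08, SE 0.14). ACACA, the carboxylase that makes malonyl units, was at 179, 216 and 172 CPM in the controls and 173, 207 and 173 CPM in the Zelnorm tumours (log2 -0.03, SE 0.13, 95% interval -0.33 to 0.26). FASN, the synthase that builds palmitate, was at 207, 272 and 205 CPM in the controls and 214, 251 and 246 CPM in the Zelnorm tumours. Here NC4 was again the highest of the 6 and all 3 Zelnorm tumours lay within the range of the controls (log2 0.05, SE 0.14, 95% interval -0.26 to 0.37).

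ELOVL6, which lengthens palmitate, had the widest spread of the 33 genes. It was at 18.4, 17.2 and 26.9 CPM in the controls and 14.5, 35.7 and 18.8 CPM in the Zelnorm tumours. The lowest and the highest value were both in the Zelnorm group, and its 95% interval ran from -0.55 to 0.83 around a log2 fold change of 0.14. The library with the lowest share of mouse counts, MBZ_257, held the highest ELOVL6, and the library with the highest share, MBZ_254, the lowest. With that share as a covariate in edgeR the log2 fold change was -0.07 and its SE went from 0.31 to 0.17. A fall in SE was not particular to ELOVL6. In the same fit the SE went from 0.18 to 0.11 for HMGCS1 and from 0.21 to 0.14 for SC5D, while that of EBP rose from 0.19 to 0.20. SCD, the desaturase that makes oleate and palmitoleate, was at 866, 1119 and 901 CPM in the controls and 1001, 859.8 and 1077 CPM in the Zelnorm tumours. It was the only one of the 7 fatty acid genes for which MBZ_254 was not the lowest of the Zelnorm tumours, since MBZ_257 was (log2 0.03, SE 0.14, 95% interval -0.30 to 0.35). The desaturases of polyunsaturated fatty acids had log2 fold changes of 0.02 (SE 0.14) for FADS1 and 0.01 (SE 0.17) for FADS2. The arm summed to 2217 ± 325 CPM in the controls and 2228 ± 123 CPM in the Zelnorm tumours (SD, n = 3). The median log2 fold change of 0.02 was 0.09 without NC4 and 0.12 without MBZ_254. It lay below 0 without any of the others, at -0.05 for NC10, -0.01 for NC9, -0.08 for MBZ_257 and -0.02 for MBZ_259.

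None of the genes in 3 lists around these arms passed the test. Of 19 genes of sterol uptake, transport, storage and efflux, 10 had a log2 fold change above 0 and 9 below (median 0.01), and 0 passed the test. The smallest p were those of ERLIN2, a membrane protein of the endoplasmic reticulum (log2 -0.13, SE 0.12), MYLIP, a ubiquitin ligase that lowers lipoprotein receptors (0.15, SE 0.14), and VLDLR, one of those receptors (0.11, SE 0.13). Of 25 tested genes of fatty acid supply, elongation, activation and esterification, 15 lay above 0 and 10 below (median 0.03), and 0 passed. THRSP did not pass the filter. SCD5, a second desaturase, had a log2 fold change of -0.36 (SE 0.21), DGAT2, which makes triglyceride, -0.30 (SE 0.17), and LPIN1, a phosphatidate phosphatase, 0.15 (SE 0.12). Of 11 genes of fatty acid oxidation, 2 lay above 0 and 9 below (median -0.07), and 0 passed. Of all genes tested, 50.9% lay below 0. The control NC4 was the highest of the 6 tumours for 7 of these 11 genes, against 24.7% of all genes. The score of this list was -0.04, 0.18 and -0.04 in the controls and -0.04, -0.09 and 0.03 in the Zelnorm tumours. ECI1, an isomerase of mitochondrial oxidation, had a log2 fold change of -0.25 (SE 0.15), PPARA, the transcription factor of oxidation genes, 0.17 (SE 0.13), and CPT1A, which admits fatty acids to mitochondria, -0.16 (SE 0.15). In none of these genes did the 3 Zelnorm tumours lie on one side of the 3 controls, as they did in 4.82% of all genes.

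The mouse table lists the same pathway under mouse symbols, with the limit that epithelial symbols also held counts there. A mouse gene of the same symbol was present and tested for 31 of the 33 members, CYP51A1 and SCD being the exceptions. Mouse counts made up a median of 6.85% of the counts of a member's pair, below the median of 17.1% over the 11112 pairs tested. Over the 6 libraries the mean share ran from 1.68% for TM7SF2 to 22.9% for ACLY. That of ACLY stayed within 20.5% and 24.3%, while that of STARD4 ran from 8.03% in MBZ_257 to 27.2% in MBZ_254. An edgeR fit that blocked on library and tested the interaction of species and treatment called 0 of the 31 pairs, and 0% of all pairs tested. FASN was the member with the largest difference. Human FASN had a log2 fold change of 0.05 and mouse Fasn of -1.16 (SE 0.29), a difference of 1.15 (SE 0.20; unadjusted p = 0.000228 and adjusted p = 1.00 by edgeR). Mouse Fasn was at 93.6, 182 and 86.9 CPM of the mouse table in the controls and at 54.5, 48.7 and 58.7 CPM in the Zelnorm tumours, with the 3 Zelnorm tumours below the 3 controls. Groups that did not overlap, in either direction, were found for 5.52% of the 14459 mouse genes tested. Mouse Fasn did not pass the test in the mouse table (adjusted p = 1.00 by edgeR). Beside this, the 6 fat cell markers summed to 118 to 357 CPM in the mouse table of the controls and 14.5 to 76.6 CPM in that of the Zelnorm tumours, and their part in the difference of Fasn was not tested. Without NC4 the difference between the species was 0.94. No other member pair had an unadjusted p under 0.05.

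**Figure D5:**
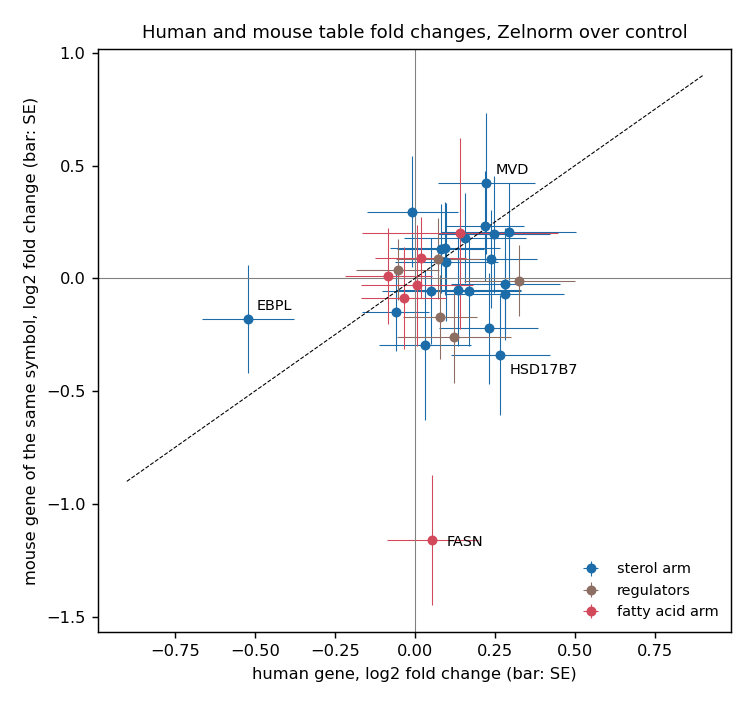
Log2 fold change of Zelnorm over control in the mouse table (vertical axis) against that in the human table (horizontal axis) for the 31 members with a mouse gene of the same symbol, with SE as bars (n = 3 tumours per group) and a dashed line of equal change. FASN lies apart, at 0.05 in the human and -1.16 in the mouse table.

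The order of the tumours in both tables was compared over the 31 pairs. The highest library was the same in both tables for 9 of 31 members, against 29.4% of all pairs tested, and the lowest for 14 of 31, against 32.8%. Both were the same for 5 of 31 members, against 1282 of all 11112 pairs. The 5 were ELOVL6, FADS1, HMGCS1, MVD and SC5D, which were picked out after their values were seen. ELOVL6 was highest in MBZ_257 and lowest in MBZ_254 in both tables, and the mouse symbol Elovl6 was at 13.5, 10.8 and 17.8 CPM of the mouse table in the controls and 9.40, 28.3 and 11.2 CPM in the Zelnorm tumours. The epithelial symbols of the mouse table were highest and lowest in the same libraries, and the part of tumour cell reads in the mouse values was not tested.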

How the data were processed

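RNA was sequenced from 6 subcutaneous tumours, and a TruSeq kit was used on total RNA, per the labels' protocols. The authors deposited 1 human and 1 mouse table of estimated counts by gene. Named tools and builds are HISAT2, StringTie, DESeq2, edgeR, GRCh38 and GRCm38, with no versions or roles, per the submitters' processing notes. Of human values above 0, 38.0% were not whole, and the estimated counts were rounded first, in place of the raw counts planned for. Columns carry the group prefix of the titles and a number no label repeats, so libraries were tied to a group only. The 574 human rows without a gene name, 0.407% to 0.518% of a library's counts, were left out.

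Zelnorm was compared with control over all 18820 human genes that passed filterByExpr, with TMM scaling and edgeR 4.0.16 in R 4.3.3 (glmQLFit and glmQLFTest, two-sided), limma 3.58.1 (voom) and DESeq2 1.42.0 being alternatives. Adjusted p-values are Benjamini-Hochberg values over all genes, called under 0.05. Fold changes are log2 with an SE from the F statistic, and 95% intervals use the test's degrees of freedom. CPM are counts scaled to the tested genes' total times the TMM factor, except for marker sums, which are scaled to the named genes' total. Scores use log2 CPM with a prior count of 2. Species pairs were tested by interaction over symbols unique in both tables. Both fits were tested on simulated data with the same spread setting for every gene and planted changes larger than those of any member. Whether changes of the members' size would be called was not tested.

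Members and lists were chosen with earlier results of these data known. Values in every library were given for 8 landmark genes, for members whose groups do not overlap and for the 3 members of each group with the smallest p. Up to 3 other lipid genes per list, those with the smallest p, are named with fold change and SE. The per-library values of ACAT2, IDI1, FDFT1, EBP and SC5D were added after their values were seen. Alternatives were other scalings, filters and tests, the mouse share as a covariate, and leaving out each library. No member sequence is printed.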

Additional observations from a re-analysis of the deposited data

How the results depend on the processing

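With 3 tumours per group and adjusted p-values of 1.00, no member was called under any of 13 alternatives, and 32 of 33 kept an adjusted p of 0.998 or more in each. Of all human genes, 0 were called by edgeR (247 at an unadjusted p under 0.05), 1 by DESeq2 (TMEM238, lower; 203 unadjusted), 0 by limma-voom (260 unadjusted) and 61 by edgeR without the count filter (42 higher and 19 lower), none of them a member. Of the species pairs, 0 were called (178 unadjusted), 1 without the count filter (GLB1L2), and 0 to 2 with a library left out, the 2 being ATP2A1 and MYBPC2 without MBZ_259. The median of the sterol arm was 0.13 with the regulators added and 0.19 without LBR, EBPL and GGPS1. No paired analysis was possible because the columns carry no replicate number of the labels. The sign was the same in all 13 alternatives for 17 members. It changed for PMVK without the count filter (0.0011) and with limma-voom (0.0084), for FADS2 with upper quartile scaling (-0.00043), and with the mouse share as a covariate for ELOVL6 (-0.074), FADS1 (-0.021) and FADS2 (-0.014), where the fatty acid median was also below 0 (-0.021). With 1 library left out, log2 fold changes ran across 0 as follows. In the sterol arm they ran from -0.10 to 0.13 for PMVK, -0.016 to 0.18 for FDPS, -0.093 to 0.16 for GGPS1, -0.065 to 0.35 for FDFT1, -0.051 to 0.20 for TM7SF2, -0.0035 to 0.29 for NSDHL and -0.019 to 0.25 for DHCR7. They ran from -0.14 to 0.089 for SCAP and -0.026 to 0.27 for STARD4. In the fatty acid arm they ran from -0.17 to 0.064 for ACLY, -0.12 to 0.074 for ACACA, -0.011 to 0.20 for FASN, -0.32 to 0.38 for ELOVL6, -0.048 to 0.15 for SCD, -0.076 to 0.14 for FADS1 and -0.10 to 0.19 for FADS2. The cause was not tested. The lowest count of any member in a library was 300 (NSDHL in MBZ_254); counting error was not separated from the spread between tumours.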
